A study of Mus musculus with 14 samples.

Results

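A set of 11079 genomic regions carried an H3K27ac peak in mouse embryonic stem cells (ESCs) but no H3K4me1 peak, neither in the ESCs nor after 4 days with retinoic acid (RA). They were selected on peak calls alone: an ESC H3K27ac peak entered when no peak of the ESC or RA H3K4me1 lists overlapped it by 1 bp or more. They made up 11.03% of the 100469 ESC H3K27ac peaks, and the other 89390 peaks overlapped an H3K4me1 peak. Of the ESC H3K27ac peaks, 15524 had no ESC H3K4me1 peak, and 4445 of these gained an H3K4me1 peak in the RA list and were therefore not taken. The 11079 regions were split by overlap with an RA H3K27ac peak into 3312 retained regions and 7767 regions called ESC-only by the peak lists. Low H3K4me1 counts, high ESC H3K27ac counts and the higher RA H3K27ac counts of retained regions follow from this choice and are given as descriptions without a test.

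H3K27ac is put on nucleosomes of active enhancers and promoters by the acetyltransferases p300 and CBP, and H3K4me1 is written by MLL3 and MLL4 at enhancers, often before they are acetylated. A distal element with both marks is commonly called an active enhancer, while active promoters carry H3K4me3 in place of H3K4me1 at their centre. DNA methylation (5mC) is usually low at both. Regions with acetylation and no called H3K4me1 peak thus fall outside the usual definition of an enhancer, and the 5mC of the DNA that the antibodies pulled down there is the question of the comparisons below.

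The method, ChIP-BS-seq, precipitates nucleosomal DNA with an antibody and then bisulfite-sequences it, so that 5mC is read in DNA bound by 1 mark. The cells were R1, an established male mouse ESC line, 2 days after withdrawal of 2i (inhibitors of MEK and GSK3), the same line after 4 days with 1 µM RA, and the same line after 9 days of differentiation toward extraembryonic endoderm (XEN) with 0.1 µM RA and Activin A. RA differentiation gives a mixture of cell states, so that each value is an average over a mixed population. H3K27ac and H3K4me1 were profiled in each state, with 1 library per mark in ESCs and in RA cells and 2 replicate libraries per mark in XEN cells. Whether an ESC or RA library pools repeats was not established, so differences between 2 of these libraries compare libraries and not cell states.

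The libraries held between 32305709 and 58803653 CpG counts in ESCs and RA cells and between 12147115 and 31345707 in XEN cells. In the XEN set, file names and sample labels assign the antibodies in opposite ways, and the labels were followed here. The counts went against those labels. Over the 62677 RA H3K4me1 peaks with no H3K27ac peak in ESCs or RA cells, the libraries labelled H3K27ac held 0.788 and 0.857 CPM per kb (CPM, CpG counts-per-million of a library) and those labelled H3K4me1 0.301 and 0.351, while the RA H3K4me1 library held 1.08 and the RA H3K27ac library 0.344. Every XEN value is therefore given by its label only, and no direction between marks is drawn from it.

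The regions without an H3K4me1 peak were short and weakly enriched, the ESC-only ones most of all. ESC-only regions had a median width of 1000 bp, the smallest width in the list, and 4697 of 7767 had exactly this width. Retained regions had a median of 1289 bp and the H3K4me1-marked H3K27ac peaks 1815 bp. The median score of the peak caller was 9.86 in ESC-only regions, 12.3 in retained regions and 19.9 in H3K4me1-marked peaks. Together the 11079 regions covered 14.9 Mb against 261 Mb for the H3K4me1-marked peaks.

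Most of the regions lay near H3K4me1 peaks without touching them. The distance to the nearest H3K4me1 peak of either list had a median of 1554 bp for retained regions, with quartiles at 624 and 3505 bp, and of 2253 bp for ESC-only regions, with quartiles at 858 and 6028 bp. In all, 3450 regions were within 1000 bp of such a peak, and 1443 were 10000 bp or more away. The share of retained regions was 35.9% within 1000 bp of an H3K4me1 peak and 14.6% at 10000 bp or more. The regions were scattered, with 7447 of 11079 having no other one within 10000 bp. The largest group, chr8:126422905-126462532 (coordinates are mm9 throughout), held 11 of them, 5 retained, and its 5mC was 62.6% in the ESC H3K27ac library over 786 CpG counts.

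The 355 regions within 100 bp of an H3K4me1 peak had 63.3% 5mC in the ESC H3K27ac library, and the 370 excluded peaks that an H3K4me1 peak overlapped by 100 bp or less had 58.2%. Their H3K4me1 counts in ESCs were 0.353 and 0.350 CPM per kb. The nearest region inside, chr9:105978119-105979118, lay 1 bp from an H3K4me1 peak and had 71.1% 5mC in ESC H3K27ac DNA over 38 counts. The next, chr2:119246456-119247455, lay 2 bp away and held only 3 counts there. Of the excluded peaks with the smallest overlap, 1 bp, chr1:45861591-45864306 had 67.3% over 49 counts and chr1:166574680-166575943 had 50.0% over 6.

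Acetylation over the regions was well above the level outside all peaks, and H3K4me1, though it made no peak, was not at zero. The ESC H3K27ac library held 0.839 CPM per kb over retained regions, 0.727 over ESC-only regions and 2.40 over H3K4me1-marked peaks, against 0.110 outside the peaks of all 4 lists. The ESC H3K4me1 library held 0.291 over retained and 0.263 over ESC-only regions, against 2.04 over H3K4me1-marked peaks and 0.0641 outside. Over all 11079 regions, H3K27ac was thus 6.99 times and H3K4me1 4.26 times the level outside peaks. After RA, H3K27ac was 7.74 times that level over retained regions and still 3.18 times over ESC-only regions, which lack only a called peak. Such counts also depend on how many CpGs a region has, which the files do not give, so the ratio between libraries over the same regions is the safer comparison.

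Region by region, H3K27ac counts exceeded H3K4me1 counts in 96.0% of regions in ESCs and in 85.2% after RA. In ESCs H3K27ac CPM was above H3K4me1 CPM in 10636 of 11079 regions, with medians of 0.767 and 0.272. After RA it was above in 3205 of the 3312 retained regions, with medians of 0.898 and 0.233, and in 6238 of the 7767 ESC-only regions, with medians of 0.310 and 0.127. Among H3K4me1-marked peaks H3K27ac was above in 35.2% in ESCs and in 44.2% after RA. Counts of single regions were low. The median ESC-only region had 23 CpG counts in the ESC H3K27ac library and 14 in the ESC H3K4me1 library, and 244 ESC-only regions had none in the latter.

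The profiles around the peak centres separate the marks. H3K27ac at the centre of retained regions was 1.80 times its level at 4000 bp or more from the centre in ESCs and 1.43 times after RA. At ESC-only regions it was 1.90 times the flank in ESCs and 0.957 after RA. H3K4me1 ran the other way. It was 0.591 of its flank level at the centre of retained regions in ESCs and 0.483 after RA, and 0.730 and 0.514 at the centre of ESC-only regions. Neighboring H3K4me1 peaks can lie in these flanks, while the rule keeps them out of the centre. In both groups and both states the H3K4me1 profile had a minimum on either side of the centre and was slightly higher at the centre itself, and 5mC in ESC H3K27ac DNA was slightly lower at the centre than beside it.

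**Figure D1:**
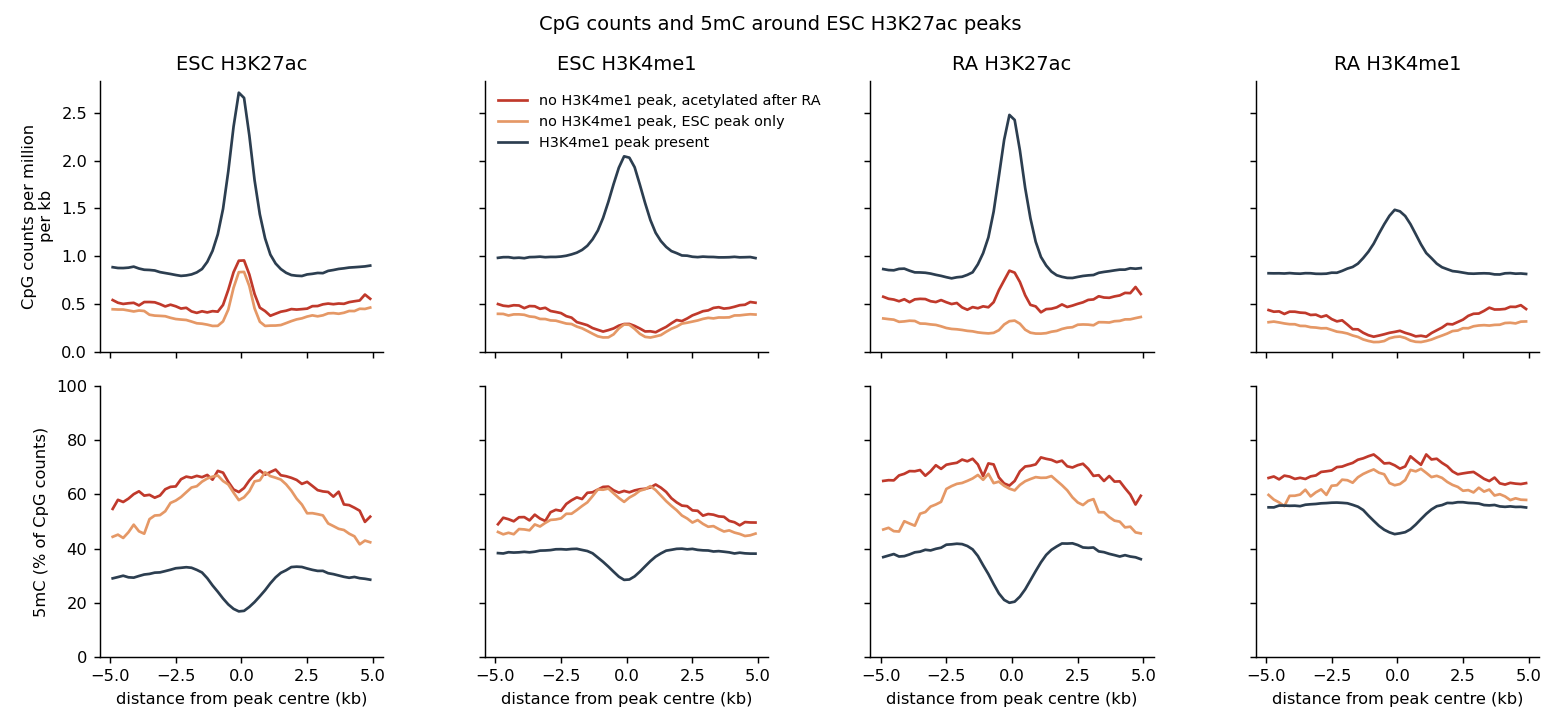
CPM per kb (top) and 5mC in percent of CpG counts (bottom) by distance from the peak centre in kb, in the 4 libraries of ESCs and RA cells, for 3312 retained regions (red), 7767 ESC-only regions (orange) and 89390 H3K4me1-marked H3K27ac peaks (dark blue). The marked peaks dip in 5mC at the centre, to 16.9% in ESC H3K27ac DNA, while retained and ESC-only regions stand at 61.6% and 58.4% there, above their own flanks.

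The DNA of these acetylated regions was highly methylated. In the ESC H3K27ac library 5mC was 64.5% (95% interval 64.3 to 64.8) over retained regions and 61.5% (61.3 to 61.7) over ESC-only regions, against 18.3% over H3K4me1-marked peaks. The level outside all peaks was 60.7%, so both groups were slightly above the DNA that the same antibody pulled down elsewhere. In the ESC H3K4me1 library 5mC was 61.7% over retained and 59.7% over ESC-only regions, 30.5% over H3K4me1-marked peaks and 57.3% outside. The intervals are exact binomial ones and cover counting error only. With 1 library per mark the difference between the sets of peaks has no replicate check.

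Single regions gave the same picture. Of 4539 regions with at least 30 CpG counts in the ESC H3K27ac library (41.0% of all), 4004 were above 50% 5mC and 124 below 20%, the range the field calls unmethylated (UMR). The median was 70.7% over 1812 retained and 67.6% over 2727 ESC-only regions, and 37.5% over 70026 H3K4me1-marked peaks, of which 28.4% were below 20%. In the ESC H3K4me1 library the medians were 63.3% and 61.0% over 1101 and 1630 regions. The regions that passed the count minimum are the deeper ones and do not stand for all 11079.

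**Figure D2:**
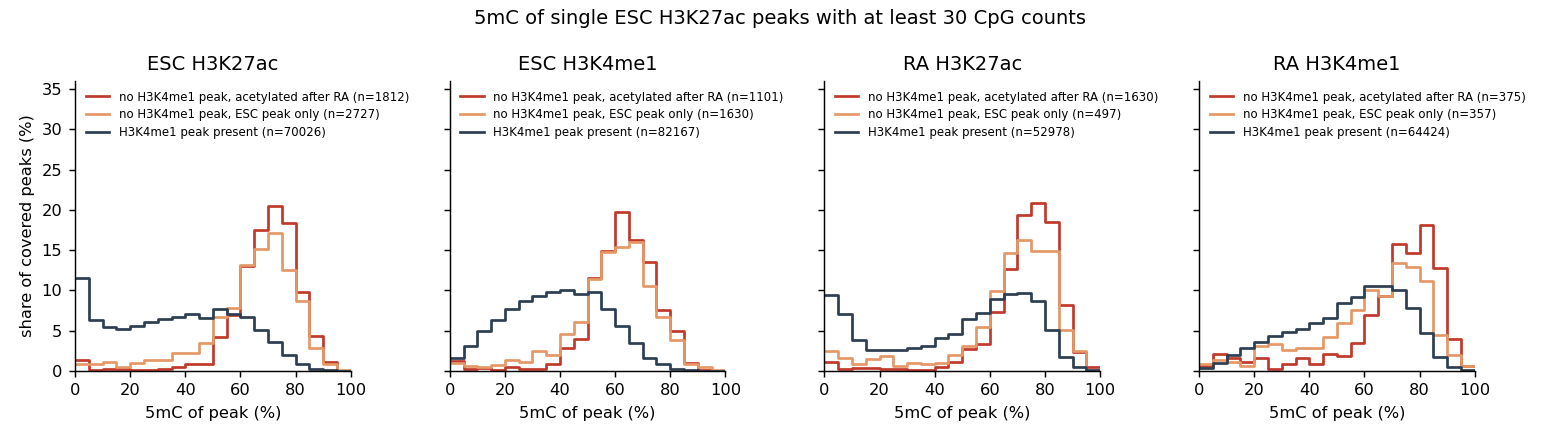
Share of covered peaks (percent) by their 5mC (percent, in steps of 5) in the 4 libraries of ESCs and RA cells, for retained regions (red), ESC-only regions (orange) and H3K4me1-marked H3K27ac peaks (dark blue), each with at least 30 CpG counts in that library. In ESC H3K27ac the medians are 70.7% and 67.6% for the red and orange groups and 37.5% for the marked peaks.

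The high 5mC was not limited to weak peaks. For regions with a score under 9, from 9 to 12, from 12 to 20 and of 20 or more, 5mC in the ESC H3K27ac library was 63.4%, 62.1%, 63.5% and 61.9%. Over the same bands of score it was 44.4%, 39.0%, 35.95% and 16.0% in H3K4me1-marked peaks. H3K4me1 counts did not follow the score of these regions either, with 0.269, 0.287, 0.273 and 0.263 CPM per kb in ESCs. The share of regions that kept an RA H3K27ac peak rose from 20.2% in the lowest band to 54.3% in the highest, and in H3K4me1-marked peaks from 41.2% to 70.2%.

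**Figure D3:**
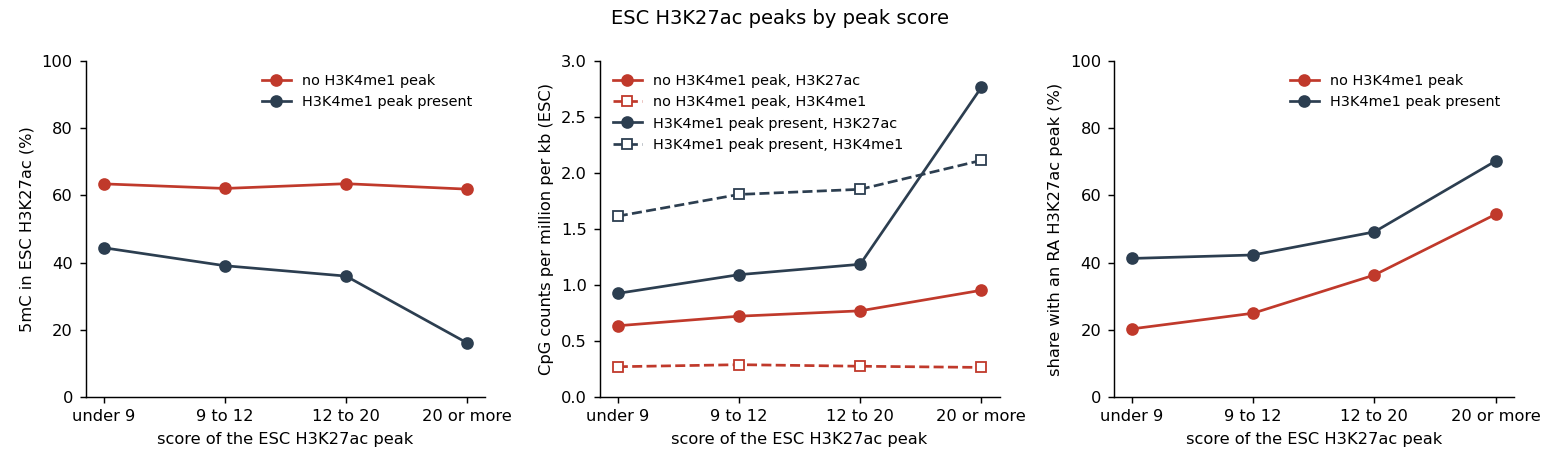
ESC H3K27ac peaks without (red) and with (dark blue) an H3K4me1 peak, by peak score on the horizontal axis: 5mC in the ESC H3K27ac library in percent (left), CPM per kb in the ESC libraries, with H3K27ac as filled circles and H3K4me1 as open squares (middle), and the share with an RA H3K27ac peak in percent (right). 5mC of the regions without an H3K4me1 peak lies between 61.9% and 63.5% in every band.

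Distance from H3K4me1 peaks went with 5mC only far out. 5mC in the ESC H3K27ac library was 65.4% within 1000 bp of an H3K4me1 peak, 65.1% from 1000 to 2000 bp, 65.3% from 2000 to 5000 bp, 61.6% from 5000 to 10000 bp and 49.3% beyond. H3K4me1 counts in ESCs fell over the same bands from 0.322 to 0.199 CPM per kb. The 211 retained regions at 10000 bp or more had the lowest 5mC, 44.2%, and they include 3 of the 5 retained regions with the most H3K27ac counts, described below, which had between 0.194% and 8.88% 5mC there.

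After RA, 5mC in H3K27ac DNA rose at few of the regions that could be tested. Pooled 5mC was 67.0% (66.7 to 67.3) over retained and 63.6% (63.3 to 63.9) over ESC-only regions, against 64.5% and 61.5% in ESCs. Fisher's exact test, two-sided and adjusted over all 51829 ESC H3K27ac peaks with 30 counts in both libraries, covered 1897 regions. It called 153 of them higher after RA (8.07%) and 38 lower (2.00%), where over all peaks tested it called 45.7% higher and 2.4% lower. Among retained regions it was 117 higher and 32 lower of 1422, and among ESC-only regions 36 higher and 6 lower of 475. The median difference was 3.63 percentage points for retained regions, 2.29 for ESC-only regions and 10.8 for all peaks. Depth differed with it: the tested regions had a median of 56 counts in ESCs and 45 after RA, and all tested peaks 130 and 93. With 60 counts required in both libraries, 18.2% of 435 regions and 56.3% of all tested peaks were called higher. What the smaller depth and the higher start of the regions contribute was not tested.

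**Figure D4:**
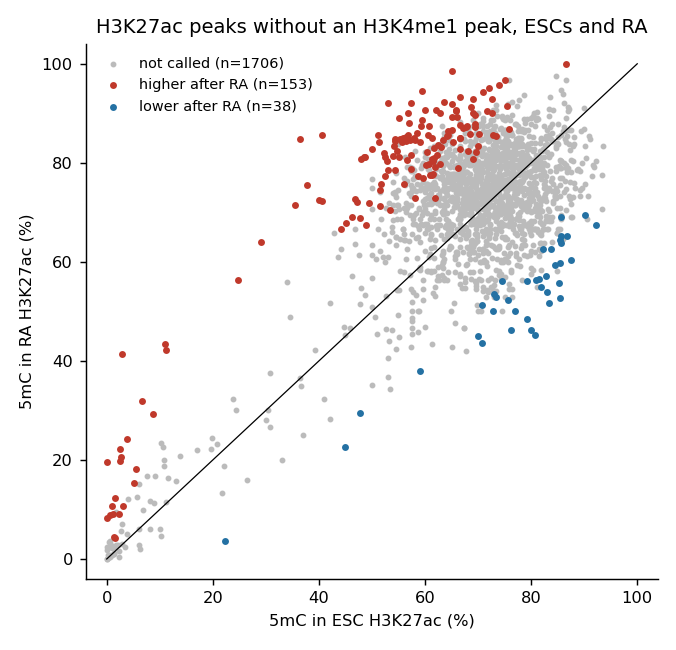
5mC in percent in the ESC H3K27ac library (horizontal) and the RA H3K27ac library (vertical) for the 1897 regions without an H3K4me1 peak and with 30 CpG counts in both, each point a region, with 153 called higher after RA (red), 38 called lower (blue) and the rest in grey; the line marks equal values. Most points lie above 50% in both libraries, and the called regions below 20% in ESCs all rose.

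The regions named here were called and had 100 counts in both libraries, and are those with the largest differences among these. chr14:76112652-76117327, retained, went from 62.3% over 106 counts to 81.6% over 103 (adjusted p = 0.00609, Fisher's exact test), and its H3K4me1 DNA from 56.4% to 78.4%. chr11:30012321-30015446, retained, went from 61.5% to 80.4% (adjusted exact p = 0.00785). The clearest rise was at chr4:145230065-145231676, an ESC-only region, which was nearly unmethylated in ESCs with 2.77% of 506 counts and reached 20.6% of 194 after RA (adjusted exact p = 2.51e-12). In its H3K4me1 DNA 5mC was 10.8% of 102 counts in ESCs and 50.0% of 28 after RA. Retained regions chr14:15184528-15188103 and chr17:46357209-46360737 rose by 17.1 and 16.1 points. Only 2 regions of this depth were called lower, both retained. chr16:3650335-3653623 fell from 69.9% to 45.0% and chr1:87487329-87490333 from 59.0% to 38.0%.

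5mC was also higher after RA in H3K4me1 DNA, though few regions had enough counts to be tested. Pooled 5mC rose from 61.7% to 71.7% over retained and from 59.7% to 65.7% over ESC-only regions, while H3K4me1 counts fell from 0.291 to 0.204 and from 0.263 to 0.152 CPM per kb. Of 503 regions with 30 counts in both libraries, Fisher's exact test called 103 higher (20.5%) and 9 lower (1.79%), where over all 62106 peaks tested it called 70.3% higher and 1.23% lower. The medians of the difference were 12.1 points in 257 retained and 8.90 points in 246 ESC-only regions, against 17.7 points over all peaks. These 503 regions are 4.54% of the set, chosen by their depth in H3K4me1. Among the 3 called higher with 100 counts in both, chr7:7250743-7253071, retained, went from 2.55% of 274 counts to 13.0% of 270 (adjusted exact p = 9.78e-06), while its H3K27ac counts rose from 607 to 1906. The 3 called lower at this depth were above 50% in ESCs: chr6:103598554-103599553 went from 54.5% to 36.7%, chr9:3029538-3030814 from 77.1% to 63.0% and chr9:3002057-3003056 from 73.1% to 62.1%. These 3 held between 951 and 1652 counts in each XEN library labelled H3K4me1 and between 202 and 2834 in each labelled H3K27ac, against at most 164 in an ESC library.

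Within ESCs, the DNA of the regions was a little less methylated when pulled down with H3K4me1 than with H3K27ac. Of 2283 regions with 30 counts in both libraries, 1443 had lower and 826 higher 5mC with H3K4me1, and the median difference was -5.41 points in retained and -2.73 points in ESC-only regions. Over all 71202 peaks tested the median was 1.48 points in the other direction. Outside all peaks 5mC was also lower with H3K4me1, 57.3% against 60.7% with H3K27ac. Few single regions passed the test: 58 were called higher in H3K4me1 (2.54%) and 72 lower (3.15%), where all peaks gave 20.5% and 3.36%. With no H3K4me1 peak within 1000 bp the calls among 1400 tested regions were 44 higher and 39 lower, which turns their order. The share called lower was near the background and is no result about the regions. The largest such difference among regions with 100 counts in both was at chr12:20236081-20237403, ESC-only, with 80.0% in H3K27ac and 49.6% in H3K4me1 DNA over 110 and 121 counts (adjusted exact p = 1.12e-05). In the other direction, chr3:5860022-5861021, ESC-only, had 2.38% in H3K27ac and 16.1% in H3K4me1 DNA over 336 and 186 counts (adjusted exact p = 1.69e-07).

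After RA 5mC was a little higher with H3K4me1 than with H3K27ac in most of the tested regions. Outside all peaks it was also higher, 62.9% against 57.6%. Among 463 regions with 30 counts in both RA libraries, 289 had higher and 173 lower 5mC with H3K4me1, and the median difference was 2.19 points in 333 retained and 5.76 points in 130 ESC-only regions, against 5.65 points over all 49739 peaks tested. Fisher's exact test called 38 higher (8.21%) and 3 lower (0.648%), where over all peaks it called 29.4% and 1.27%. The change of sign between ESCs and RA cells rests on different regions, 2283 and 463, and was not tested. Of the 5 regions called higher with 100 counts in both libraries, those with the 2 largest differences were nearly unmethylated in H3K27ac DNA: chr8:19784556-19786095, retained, had 0.762% of 656 counts with H3K27ac and 28.2% of 103 with H3K4me1 (adjusted exact p = 2.32e-21), and chr3:5860022-5861021 had 1.63% of 184 and 26.4% of 193 (adjusted exact p = 1.18e-12). chr1:34353868-34355120, retained, was the largest of the 3 called lower, with 88.7% of 62 counts with H3K27ac and 58.3% of 48 with H3K4me1.

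A small group of regions departed from the high 5mC of the rest and held many counts. The 124 regions below 20% 5mC in the ESC H3K27ac library, 33 of them retained, had 4.69 CPM per kb there, against 0.983 in the 4004 regions above 50%, and 36.4 counts per listed 200-bp bin against 7.41. These sets were chosen by ESC H3K27ac 5mC. In the other libraries their pooled 5mC was 12.4% in ESC H3K4me1, 7.05% in RA H3K27ac, 21.7% in RA H3K4me1, 4.74% and 4.12% in XEN libraries labelled H3K4me1 and 20.7% and 21.01% in those labelled H3K27ac. In the libraries labelled H3K4me1, 3 of the 124 regions held 64.2% and 64.9% of these counts, and without them, a choice made after seeing the data, 5mC was 12.1% and 10.9%. Regions above 50% were between 64.0% and 75.5% in the same libraries. Of the low regions with 30 counts in the library, 58 of 73 were below 20% in RA H3K27ac too, but only 54 of 83 in ESC H3K4me1 and 31 of 79 in RA H3K4me1. In XEN cells it was 25 of 30 and 28 of 32 in libraries labelled H3K4me1 and 22 of 39 and 22 of 45 in those labelled H3K27ac. Input and mappability were not examined over these regions, so their counts are not corrected for either.

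Of the 5 retained and 5 ESC-only regions with the most ESC H3K27ac counts, 9 belonged to this group. Among retained regions, chr8:19892209-19893459 had 1029 counts with 0.194% 5mC in ESC H3K27ac and 899 with 0.890% after RA, and its H3K4me1 libraries had 98 counts with 1.02% and 152 with 9.87%. In XEN libraries labelled H3K4me1 it had 1815 and 2355 counts. chr8:20019624-20020876, on the same chromosome, had 884 counts with 1.02% in ESC H3K27ac and 2864 and 4106 counts in XEN libraries labelled H3K4me1. chr12:19180819-19183256 (891 counts, 1.80%), chr14:15177478-15182315 (878 counts, 8.88%) and chr9:4258554-4261391 (728 counts, 17.0%) completed the 5. The ESC-only regions with the most counts had 27.4% (588 counts, on chromosome 18), 2.77% at chr4:145230065-145231676, 8.15% at chr6:3150964-3152466, 1.29% at chr9:111214045-111215044 and 2.38% at chr3:5860022-5861021. The 10 deepest retained regions held 4.88% of the retained counts in ESC H3K27ac with 6.67% 5mC, and without them the retained regions had 67.5%.

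Low 5mC was more common on the X chromosome, of which this male line has 1 copy. On the X, 14 of 52 covered regions (26.9%, exact 95% interval 15.6 to 41.0) were below 20% in ESC H3K27ac, against 110 of 4483 on the autosomes (2.45%, 2.02 to 2.95). The medians were 43.6% and 69.1%. H3K4me1-marked peaks showed the same order, with 59.6% below 20% on the X and 27.9% on the autosomes. The X also held fewer retained regions, 24 of 145 (16.6%), than any autosome, where the share ran from 24.8% to 35.6%.

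XEN libraries, which the rule did not use, held more CpG counts over retained than over ESC-only regions. The libraries labelled H3K4me1 held 1.44 and 1.37 CPM per kb over retained regions and 0.367 and 0.396 over ESC-only regions, 3.93 and 3.47 times more over the retained ones. Without the 10 deepest regions of each group and library, which held 23.7% and 23.6% of the retained counts, the ratios were 3.25 and 2.85. In the libraries labelled H3K27ac the values were 0.206 and 0.265 over retained and 0.0997 and 0.120 over ESC-only regions. Over H3K4me1-marked peaks both labels were high, 2.19 and 2.08 for H3K4me1 and 1.78 and 1.70 for H3K27ac. XEN libraries list only bins with at least 4 counts, and 2139 regions, 2008 of them ESC-only, had no listed bin in any. The same minimum raised the retained to ESC-only ratio from 2.43 to 3.30 in RA H3K27ac and from 1.34 to 1.46 in RA H3K4me1. In ESCs it went from 1.15 to 1.18 for H3K27ac and stayed at 1.11 for H3K4me1. What the minimum adds to the XEN ratios was not tested.

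The ratio between the labels was higher over retained regions than over ESC-only regions or H3K4me1-marked peaks, a difference that was not tested. With the labels exchanged each ratio would be its inverse and this order would turn. The mean over libraries labelled H3K4me1 was 1.41 ± 0.0477 (SD, n = 2) CPM per kb and over those labelled H3K27ac 0.236 ± 0.0421 (SD, n = 2), a ratio of 5.97. For ESC-only regions the means were 0.381 ± 0.0206 and 0.110 ± 0.0142 (SD, n = 2 each), a ratio of 3.47, and for H3K4me1-marked peaks the ratio was 1.23. With only the bins listed in all 4 libraries, the log2 ratio went from 2.59 to 1.76 over retained and from 1.80 to 0.518 over ESC-only regions. Both differences exceed the spread between replicates, but the exact permutation test of 2 against 2 libraries cannot give a two-sided p below 0.333. Region by region, both libraries labelled H3K4me1 were above both labelled H3K27ac in 2550 of 3312 retained regions (77.0%) and 2570 of 7767 ESC-only regions (33.1%), with 34.0% over all ESC H3K27ac peaks. They were below in 35 and 198 regions (1.06% and 2.55%), with 29.1% over all peaks. The centre profile in the libraries labelled H3K4me1 rose to 2.34 and 2.32 times its flanks over retained regions and to 1.06 and 1.13 times over ESC-only regions, and in those labelled H3K27ac it fell to between 0.392 and 0.705 of the flanks in both groups.

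Pooled 5mC of the regions was above 60% in XEN cells under both labels. Over retained regions it was 68.4% and 67.5% in libraries labelled H3K4me1 and 70.5% and 70.8% in those labelled H3K27ac, and over ESC-only regions 70.5%, 69.5%, 64.6% and 64.7% in the same order. H3K4me1-marked peaks had 35.2% and 36.1% under the first label and 57.7% and 57.8% under the second. The difference between labels, H3K4me1 minus H3K27ac, was -2.73 points over retained and 5.34 points over ESC-only regions, and both moved with the bins and regions used. With only the bins listed in all 4 libraries they were -15.6 and 1.71 points. Without the 10 deepest regions of each group, a choice made after seeing the data, the differences were 0.724 and 2.00 points. Only 106 regions had 30 counts in all 4 XEN libraries. The medians of the 92 retained ones were between 80.3% and 82.4%, while those of the 14 ESC-only ones were lower, at 39.8% and 47.7% under the H3K4me1 label and 57.5% and 59.3% under the H3K27ac label. Over all ESC-only regions with 30 counts in a single library, 111 to 288 of them, the medians were 78.1% and 78.8% under the first label and 67.2% and 70.6% under the second. In 12 of the 106 regions covered in all 4 (11.3%) both libraries labelled H3K4me1 were above both others in 5mC and in 30 (28.3%) below, with 9.23% and 56.4% over all 27592 peaks so covered.

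**Figure D5:**
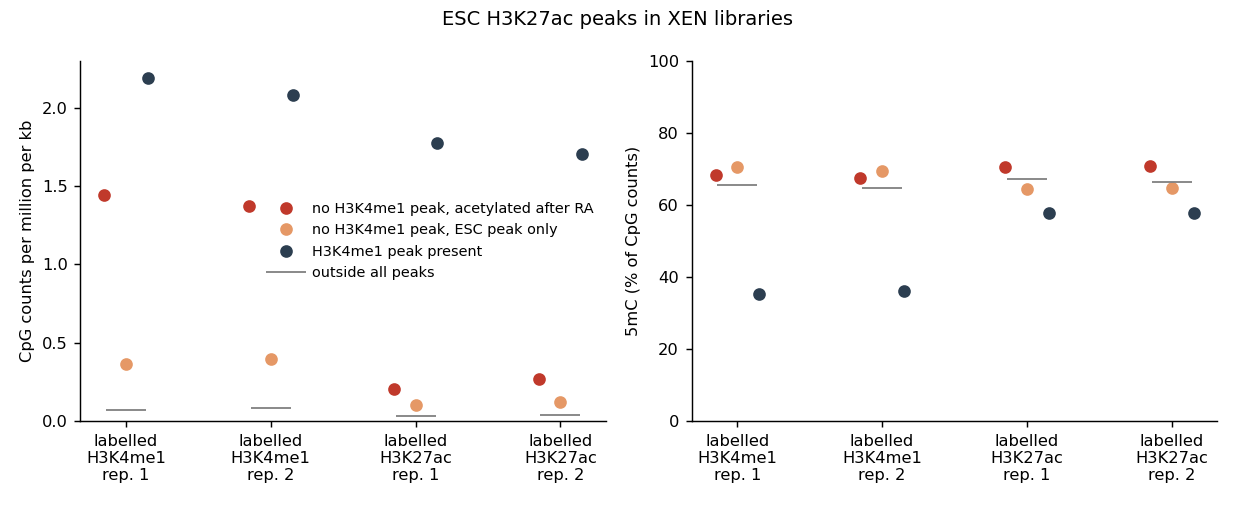
CPM per kb (left) and 5mC in percent (right) in the 4 XEN libraries, named by their labels, over retained regions (red), ESC-only regions (orange), H3K4me1-marked H3K27ac peaks (dark blue) and outside all peaks (grey bars). Retained regions stand at 1.44 and 1.37 under the H3K4me1 label and at 0.206 and 0.265 under the H3K27ac label, and 5mC of both red and orange groups lies between 64.6% and 70.8%.

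5mC was set side by side across states for regions with 30 counts in each library used. Since the counts go against the XEN labels, a difference of mark and of cell state cannot be told apart under either label. With the XEN libraries labelled H3K27ac, the medians in 98 retained regions were 69.6% in ESC H3K27ac, 74.1% in RA H3K27ac and 80.0% and 80.7% in XEN cells. In 36 ESC-only regions they were 18.0%, 39.9%, 53.9% and 54.6%. These 36 were widely spread, with quartiles at 2.52% and 70.4% in ESCs and at 5.25% and 67.7% after RA. Chosen by depth, they do not stand for the ESC-only regions, whose median in ESC H3K27ac was 67.6% over 2727 covered ones. Both XEN values were above both other values in 61 retained and 22 ESC-only regions (62.2% and 61.1%), and in 82.9% of H3K4me1-marked peaks so covered. The XEN libraries labelled H3K4me1 cover more of the regions. In 629 retained regions the medians were 71.1% in ESCs, 76.3% after RA and 81.5% and 81.7% in XEN cells. In 98 ESC-only regions they were 69.2%, 71.6%, 77.2% and 79.2%. Both XEN values were above both other values in 301 retained (47.9%) and 42 ESC-only regions (42.9%), and in 62.5% of H3K4me1-marked peaks so covered. H3K4me1-marked peaks rose from 28.5% in ESCs to 49.5% after RA and to 60.3% and 61.3% in XEN cells. The XEN libraries leave out bins with fewer than 4 counts, and the part of this in the last step was not tested.

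Among the 106 regions with 30 counts in all 4 XEN libraries, those named next had no overlap between the labels and differed most in 5mC, 3 with each sign. chr5:53257629-53258628, retained, had 81.0% and 82.6% under the H3K4me1 label and 74.1% and 63.4% under the H3K27ac label. chr7:132802020-132803019, ESC-only, had 92.6% and 96.1% against 78.1% and 86.0%, and chr8:24035651-24036650, retained, 92.1% and 86.5% against 78.8% and 77.2%. In the other direction, chr4:145230065-145231676 had 27.5% and 19.0% under the H3K4me1 label and 51.1% and 81.1% under the H3K27ac label. chr12:19294471-19295797, ESC-only, had 5.45% and 3.03% against 12 of 40 counts and 32.8%, and chr11:3022734-3024660, retained, 2.73% and 2.64% against 9 of 30 counts and 23.1%.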

How the data were processed

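Per the labels and the study's methods, the authors mapped bisulfite reads to mm9 (Bismark, Bowtie), kept only reads with all CpGs in one state, and deposited raw CpG counts, methylated and unmethylated, in bins of 200 bp. The deposited peak lists, 1 per mark and cell state for ESCs and RA cells, come from HOMER, and each peak carries a score from the authors' run. The study's methods give a peak size of 2500 bp, but 25625 of the 100469 ESC H3K27ac peaks are 1000 bp wide, the smallest width. This difference was not resolved. Column order was settled by the mitochondrial genome, where methylation is rare. XEN columns are in the reverse order.

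The regions, groups and tests were chosen with earlier results of these data known. Counts of all bins overlapping a peak by 1 bp or more were summed, and 5mC is the methylated share of CpG counts. Depth is given as CPM per kb, with the library's CpG counts as its total. Because CpG counts without molecular identifiers are not independent molecules, the 95% Clopper-Pearson intervals cover counting error only. Peaks with 30 or more counts in both libraries were tested with Fisher's exact test (two-sided, Benjamini-Hochberg over all such ESC H3K27ac peaks, 0.05). The test was first tested on simulated data with known changes.

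Named regions are the 5 retained and 5 ESC-only regions with most ESC H3K27ac counts, up to 5 called regions per direction with the largest difference and 100 counts in both libraries (30 where none had 100), 3 per direction in XEN cells, and the 2 on either side of the rule. Some of these are given only in the counts. Python 3.11.15, scipy 1.17.1 and pandas 2.3.3 were used. Alternatives varied the coverage minimum, the bins, the definition of the regions and the libraries. No mm9 sequence or annotation was used, so regions carry no gene names. Input and other samples were not analysed here.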

Additional observations from a re-analysis of the deposited data

Results flagged for a closer look

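The difference in 5mC between XEN libraries labelled H3K4me1 and those labelled H3K27ac had opposite signs in the 2 groups of regions. It was -2.73 percentage points over retained regions, with means of 67.9% ± 0.608 and 70.7% ± 0.242 (SD, n = 2 each), and 5.34 points over ESC-only regions, with means of 70.0% ± 0.699 and 64.6% ± 0.0736 (SD, n = 2 each). Both libraries of a label lay on the same side in each group. The signs stayed opposite with only the bins listed in all 4 libraries (-15.6 and 1.71 points) and with bins wholly inside the regions (-3.60 and 6.05). They also did with no H3K4me1 peak within 1000 bp (-4.72 and 4.43). With bins of 30 counts, only 33 retained and 18 ESC-only bins, the differences were -2.24 and 1.61. The opposite signs did not hold under alternatives chosen after seeing the data. The differences were 0.724 and 2.00 points without the 10 deepest regions of each library, and -1.40 and -14.6 as medians over covered regions. The difference between the groups was not tested.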

How the results depend on the processing

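The number of regions fell to 1762 with scores at or above the list median, where 50.0% were retained. The retained share was 25.7% when 0.5 or more of an ESC peak's width had to overlap and 27.2% with no H3K4me1 peak within 1000 bp.

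For H3K27ac after RA, 68 of 3579 tested regions were called lower with 20 counts, and 1381 of all 65749 peaks. With 60 counts, 79 of 435 were called higher (18.2%, against 56.3% of all peaks) and 14 lower (862 of all 31030). It was 86 higher of 1171 with no H3K4me1 within 1000 bp (7.34%) and 75 of 820 with the score limit (9.15%), against 45.7% of all peaks. For H3K4me1 after RA, 182 of 1265 were higher with 20 counts (14.4%, against 65.2% of all peaks) and 14 lower (794 of all 70480). With 60 counts 20 of 62 were higher (32.3%, against 77.9%) and 4 lower (626 of all 47164). With bins wholly inside peaks 5 of 319 were lower (759 of all 57441). With bins of 4 or more counts 63 of 335 were higher (18.8%, against 70.7%). It was 52 of 292 higher with the 1000 bp limit (17.8%) and 49 of 213 with the score limit (23.0%), against 70.3%. With the score limit 3 were lower (761 of all 62106). For the marks in ESCs, 22 of 446 were higher with 60 counts (4.93%, against 31.1% of all peaks) and 28 lower (2028 of all 47885). With inside bins 36 of 1607 were higher (2.24%, against 20.4%). With the 1000 bp limit 44 of 1400 were higher (3.14%) and 39 lower, which turns their order (58 and 72 as reported). With the score limit 26 of 846 were higher (3.07%) and 32 lower. Under these 2 limits all peaks gave 20.5% higher, and 2392 of 71202 lower. For the marks after RA, 11 of 1197 were lower with 20 counts (667 of all 60936 peaks). With 60 counts 18 of 65 were higher (27.7%, against 44.1% of all peaks). With inside bins 0 of 297 were lower (559 of all 45120), and with bins of 4 or more 5 of 291 (641 of all 43939). It was 22 of 273 higher with the 1000 bp limit (8.06%) and 20 of 217 with the score limit (9.22%), against 29.4%. With the score limit 1 was lower (631 of all 49739). Fewer peaks are tested under the stricter limits. The median differences kept their direction in all 24 alternatives.

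In XEN cells the 5mC difference between labels over retained regions was -15.6 points with bins listed in all 4 libraries, -3.60 with inside bins and -4.72 with the 1000 bp limit. Over ESC-only regions it was 1.71, 6.05 and 4.43 points, and 1.61 over the 18 bins with 30 counts. Of the alternatives chosen after seeing the data, leaving out the 10 deepest regions of each library gave 0.724 and 2.00 points, and medians over covered regions gave -1.40 over 92 retained and -14.6 over 14 ESC-only regions. The cause was not tested. On the log2 scale the count difference was 2.59 and 1.80, 1.76 and 0.518 with bins in all 4 libraries, and 2.03 over ESC-only regions without the 10 deepest. Without 1 library each, the ranges were -3.16 to -2.30 and 4.85 to 5.84 points, and 2.41 to 2.77 and 1.67 to 1.93 for counts. With the replicate number as a block the values, -2.73, 5.34, 2.59 and 1.80, equal those without it by construction, so this is no check of them. Over 27592 peaks, the differences between replicate libraries under either label were hardly correlated (r = -0.006 for 5mC and -0.032 for log2 counts). A shift common to all peaks cannot show in this r, so whether the number pairs libraries was not settled.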
